A study of Mus musculus with 3 samples.

Results

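The genes described here encode the core spliceosome, the SR proteins, the hnRNPs and factors that regulate them. They were chosen by gene symbol, as the genes whose names mark them as SRSF, HNRNP, SF3A, SF3B, PRPF, SNRP, U2AF, CLK, SRRM or LUC7L genes or as Rbm5, Rbm10, Rbm25 or Rbm39, and the rule found 84 of the 24421 genes in the deposited table. Of these, 81 had at least 1 CPM (reads of a gene relative to the scaled size of its library) in at least 1 library, and are called measured below. RNA came from JB6 P+ cells, a mouse epidermal line that tumour promoters can transform, in 3 libraries with 1 library per group. The CDDO+TPA cells were given CDDO at 50 nM, a synthetic triterpenoid, together with the phorbol ester TPA at 10 ng/mL. The TPA cells were given TPA alone at that dose, and the control cells were labelled as control. Both treatments were given on alternate days for 5 days in medium with 1% serum. For the control cells the serum, the time and any vehicle are not given in the sources used here, so differences from control cannot be told apart from differences in these. The column read as CDDO+TPA names CDDO without TPA, and it was matched to the CDDO+TPA sample because no other sample names CDDO. The header of the counts names 7 alignments, while 3 libraries are described here. The match therefore rests on the labels of these 3 alone.

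The libraries held 7872089 (CDDO+TPA), 7813035 (TPA) and 8190078 (control) reads assigned to genes. There were no replicates, so no difference below was tested against the spread between cultures. Every interval in parentheses is a 95% interval of a ratio of read counts and covers counting error only. It can be too narrow even for that error, since amplified reads are not independent molecules. The epidermal label was not borne out by the keratins Krt5 and Krt1, which had 0 reads in every library. Of 12 keratinocyte and other epithelial markers 5 were measured. In the CDDO+TPA, TPA and control libraries the list summed to 15.5, 44.4 and 20.2 CPM. In that order Itgb4 had 3.29, 23.2 and 2.87 CPM, Sfn 3.29, 9.79 and 2.995 CPM and Krt10 6.59, 9.165 and 13.0 CPM. Krt8 and Dsp had at most 1.01 and 1.255 CPM. The 10 mesenchymal markers, 9 of them measured, summed to 2416, 1965 and 3040 CPM. The leukocyte markers Ptprc and Cd3e had 0 reads in every library, while the leukocyte list summed to 76.8, 59.3 and 45.9 CPM, nearly all from Cd68 and Cd74. In bulk RNA, fewer cells expressing a gene and less RNA per cell cannot be told apart.

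Splicing removes introns from pre-mRNA in the spliceosome, which is built from small nuclear ribonucleoproteins (snRNPs). U1 recognises the start of an intron, U2AF and the U2 snRNP with its SF3A and SF3B subcomplexes recognise the branch site and the end, and the U4/U6.U5 tri-snRNP with PRPF proteins completes the machine. SR proteins bind exons and promote their use, hnRNPs often act against it, and CLK kinases phosphorylate SR proteins and so control their activity. Many of these genes limit their own output by making transcripts with premature stop codons, which are removed by nonsense-mediated decay.

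Most of the genes differed little between the libraries. All 84 together summed to 11580 CPM in the CDDO+TPA library, 12990 CPM in the TPA library and 12760 CPM in the control library, which was 1.16%, 1.32% and 1.25% of all assigned reads. Members with a mean of at least 10 CPM are called abundant below. The largest differences among them were those of Prpf39, a U1 snRNP-associated protein, and Clk2, a kinase of SR proteins. Prpf39 had 113, 210.4 and 109 CPM in the CDDO+TPA, TPA and control libraries, so that TPA stood apart and the other libraries lay close together. Clk2 had 17.4, 34.6 and 22.8 CPM in the same order, values that are uncertain because it shares exons with another gene. Luc7l3, a U1-associated protein with an arginine- and serine-rich tail, had 129, 217 and 206 CPM, and here the CDDO+TPA library stood apart.

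The promoters of these 3 genes are shown as examples of the patterns in the results, Prpf39 and Clk2 with TPA high and Luc7l3 with CDDO+TPA low. They come from the RefSeq table of GRCm38.p6, the mm10 assembly. Each runs from 250 bases before to 50 bases after the annotated start, and is written 5′ to 3′ on the strand of the gene. Capitals mark any match, on either strand, to 1 of the 9 motifs listed below.
Prpf39 (chr12:65036084-65036383, plus strand): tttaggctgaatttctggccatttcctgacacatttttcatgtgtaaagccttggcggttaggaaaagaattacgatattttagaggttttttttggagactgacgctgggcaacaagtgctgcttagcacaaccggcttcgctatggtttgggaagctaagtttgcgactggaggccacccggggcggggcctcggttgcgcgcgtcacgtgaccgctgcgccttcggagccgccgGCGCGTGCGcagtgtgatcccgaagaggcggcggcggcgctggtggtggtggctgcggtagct
Clk2 (chr3:89164545-89164844, plus strand): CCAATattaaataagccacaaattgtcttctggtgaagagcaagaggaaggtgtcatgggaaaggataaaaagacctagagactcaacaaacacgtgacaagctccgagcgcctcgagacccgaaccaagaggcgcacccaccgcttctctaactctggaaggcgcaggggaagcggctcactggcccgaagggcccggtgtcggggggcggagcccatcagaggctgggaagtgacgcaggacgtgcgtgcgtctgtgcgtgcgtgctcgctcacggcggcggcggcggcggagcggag
Luc7l3 (chr11:94321914-94322213, minus strand): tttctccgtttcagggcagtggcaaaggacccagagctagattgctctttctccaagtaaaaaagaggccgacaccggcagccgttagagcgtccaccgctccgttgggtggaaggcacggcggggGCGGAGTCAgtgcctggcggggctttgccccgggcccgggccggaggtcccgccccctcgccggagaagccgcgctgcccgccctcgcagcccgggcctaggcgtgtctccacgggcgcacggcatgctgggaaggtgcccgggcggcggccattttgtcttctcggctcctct
The Prpf39 promoter held a match to the NRF1 motif, that of Clk2 a CCAAT box, and that of Luc7l3 a match to the core of the antioxidant response element on the other strand. A match describes these letters and does not show that a factor binds there.

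The motifs were searched in the promoters of the 70 measured members in the table, which had a median GC content of 60.8%, against 60.3% over the 9870 measured genes in the table. A gene was counted when any of its listed promoters held the motif. The share of all promoters counts each promoter singly, so it is not in the same unit as the shares of genes. The TPA response element, TGANTCA, the AP-1 site, was found for 4 of the 70 members (5.71%), against 6.38% of measured genes and 7.81% of all 32851 promoters in the table. The core of the antioxidant response element bound by NRF2, TGACNNNGC, was found for 13 members (18.6%), against 17.0% of measured genes and 12.4% of all promoters. The ETS motif CCGGAAG was found for 21 members (30.0%), against 19.7% and 8.86%, and the NRF1 motif GCGCNTGCG for 18 members (25.7%), against 15.0% and 6.31%. The core of the cAMP response element, TGACGT, was found for 18 members (25.7%), against 13.2% and 7.51%. The E2F motif TTTCGCG was found for 2 members (2.86%), against 1.96% and 0.849%, and the YY1 motif AANATGGCG for 5 (7.14%), against 5.96% and 2.38%. The CCAAT box was found for 35 members (50.0%), against 43.2% and 37.4%, and the core of the heat shock element, GAANNTTC, for 7 (10.0%), against 7.10% and 7.86%. The cAMP response element core and the antioxidant response element core can overlap at their shared letters. The TPA response element and the antioxidant response element core were found at about the same share in members as in measured genes. The ETS and NRF1 motifs and the cAMP response element core had higher shares in members. The part of any of these factors in the values of the members was not tested.

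The levels of the members were compared per exonic length. The median member level, as CPM per kb of exon averaged over the 3 libraries, was 61.3 for Sm and other snRNP proteins, 58.9 for hnRNPs, 52.4 for the U2, SF3 and U2AF genes, 50.2 for SR proteins, 42.0 for SR-related proteins and CLK kinases and 35.4 for PRPF proteins, against 17.2 for all measured genes. Hnrnph1, Hnrnpu and Sf3b2 had the highest levels, at 107.1, 105.7 and 101.1 CPM per kb, and Srrm3 the lowest of the measured members, at 0.192.

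**Figure D1:**
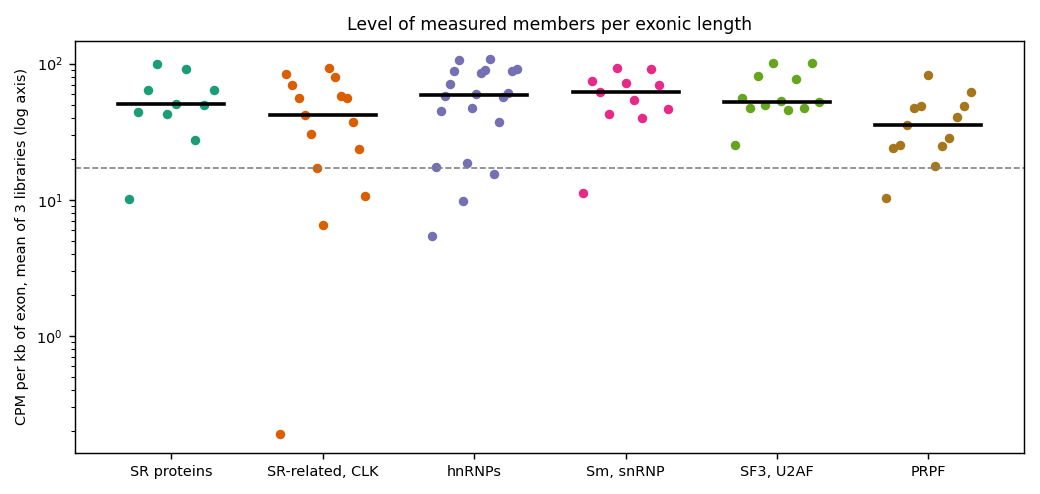
Level of each measured member as CPM per kb of exon, averaged over the 3 libraries, on a log axis, by class. Points are genes, bars are class medians and the dashed line is the median of 17.2 over all measured genes. Class medians lie between 35.4 and 61.3, with Srrm3 alone below 1. Members that share exons with another gene are divided by their full exonic length, so their levels can be understated.

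Some members share exons with other genes. Reads were counted with no option to assign a read to more than 1 gene, and 15 of the 84 members share exonic bases with another gene in the table, 7 of them at least 10% of their length. Hnrnpa1, one of the most abundant hnRNPs in most cells, had only 19.9, 22.9 and 21.8 CPM in the CDDO+TPA, TPA and control libraries and shares 79.1% of its exonic bases with the predicted gene Gm5643, which had 407, 232 and 366 reads. Snrpn shares 82.8% with Snurf on the same strand and had 1, 0 and 0 reads. Hnrnph3 shares 81.4% with Rufy2, Snrpf 69.7% with Ccdc38 and Srsf4 68.8% with Gm12992, all on the opposite strand, and Clk2 shares 70.1% with the read-through gene Clk2-scamp3. Hnrnpa3 shares 27.9% with Gm6793. With this setting a read in exons of more than 1 gene is left out of each count. The levels of these 7 genes are therefore uncertain and can be understated, also per kb, where the full exonic length was used. A difference between libraries in them may describe only the part of the gene that is not shared. Hnrnpa1 also has many processed pseudogenes in the genome, among which its reads can be divided. Prpf39 shares 7.60% with Fkbp3.

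The comparison of TPA with control shows which splicing genes differed in cells given the tumour promoter. The 2-fold rule takes genes with a log2 fold change of 1 or more, in size, and a counting interval without 1. The 1.5-fold rule takes those with 0.585 or more under the same condition on the interval. Past the 2-fold rule 1 of the 81 measured members was higher and 0 lower in the TPA library, against 9.57% higher and 5.91% lower of the 13100 measured genes. Most members are abundant, and of the 9890 genes with a mean of at least 10 CPM fewer were past this rule, 381 higher and 476 lower. Past the 1.5-fold rule 4 members were higher (4.94%) and 3 lower (3.70%), against 15.5% and 13.7% of measured genes and 10.4% and 13.9% of the 9890 genes with a mean of at least 10 CPM. Each of these 4 member shares lay below its background. The median log2 fold change was 0.02 for members and 0.00 for all measured genes.

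The comparison of CDDO+TPA with TPA shows what differed when the triterpenoid was added. Past the 2-fold rule 0 members were above and 1 was below its TPA value, against 7.87% and 7.78% of measured genes. Of the 9890 genes with a mean of at least 10 CPM, 522 were higher and 227 lower past this rule. Past the 1.5-fold rule 0 members were higher and 10 lower (12.3%). The background was 15.3% higher and 12.8% lower over measured genes, and 13.8% higher and 8.02% lower over genes with a mean of at least 10 CPM. The lower share was therefore near the background of all measured genes, while no member was past the rule upward. Among the 10, Srsf4, Clk2 and Hnrnph3 have uncertain values because they share exons with other genes. Srrm3 is also among them and was measured only through the TPA library, where it is high. Of the 81 members 59 (72.8%) had a negative log2 fold change, against 49.2% of measured genes, and the median was -0.20, against 0.01. The TPA library enters this comparison and the one with control, so a high TPA value of a gene appears in each.

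The comparison of CDDO+TPA with control does not use the TPA library. Past the 2-fold rule 0 members lay above and 0 below control, against 8.02% and 3.37% of measured genes. Of the 9890 genes with a mean of at least 10 CPM, 507 were higher and 165 lower past this rule. Past the 1.5-fold rule 0 members were higher and 6 lower (7.41%), against 13.4% and 8.70% of measured genes and 11.0% and 7.43% of genes with a mean of at least 10 CPM. The count of lower members was therefore near the background, and it was 3 with total-count scaling of the libraries. Of the 81 members 64 (79.0%) had a negative log2 fold change, against 52.0% of measured genes, with a median of -0.18, against -0.02. The shift was small for each gene and shared by 5 of the 6 classes, whose medians lay between -0.16 and -0.26, whereas PRPF genes had a median of 0.03.

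**Figure D2:**
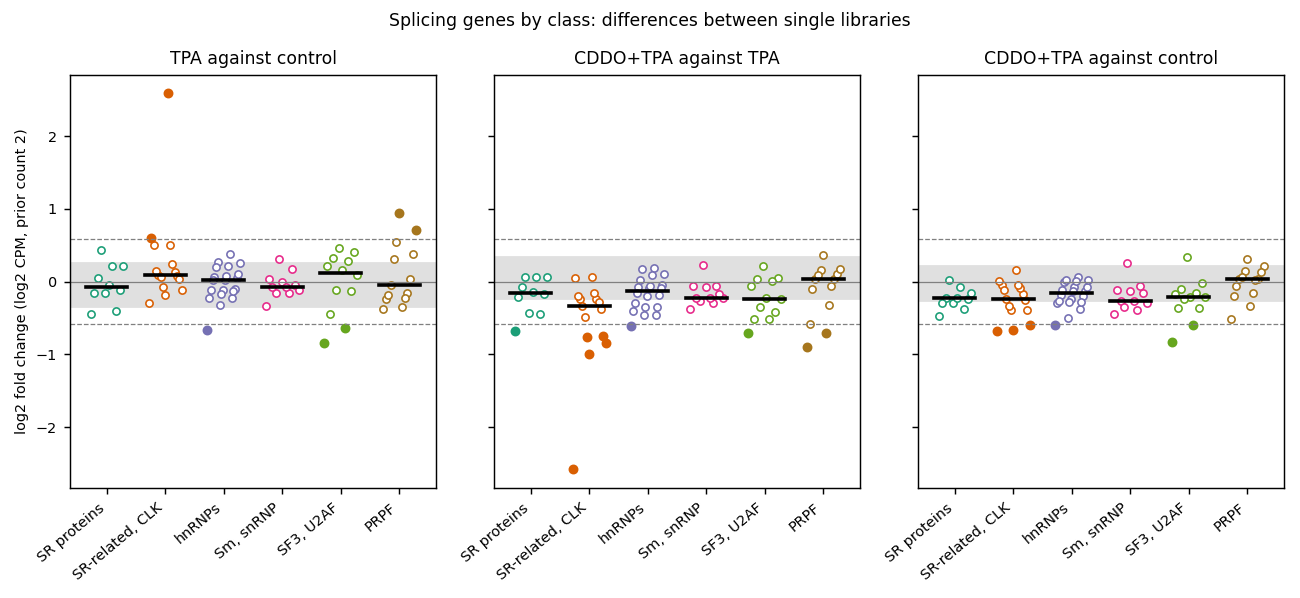
Log2 fold change of each measured member by class in the 3 comparisons, with filled points past the 1.5-fold rule, bars at class medians, dashed lines at the rule and a grey band for the middle 50% of genes with a mean of at least 10 CPM. In the CDDO+TPA comparisons most points lie below 0, except in the PRPF class, where medians are 0.03.

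**Figure D3:**
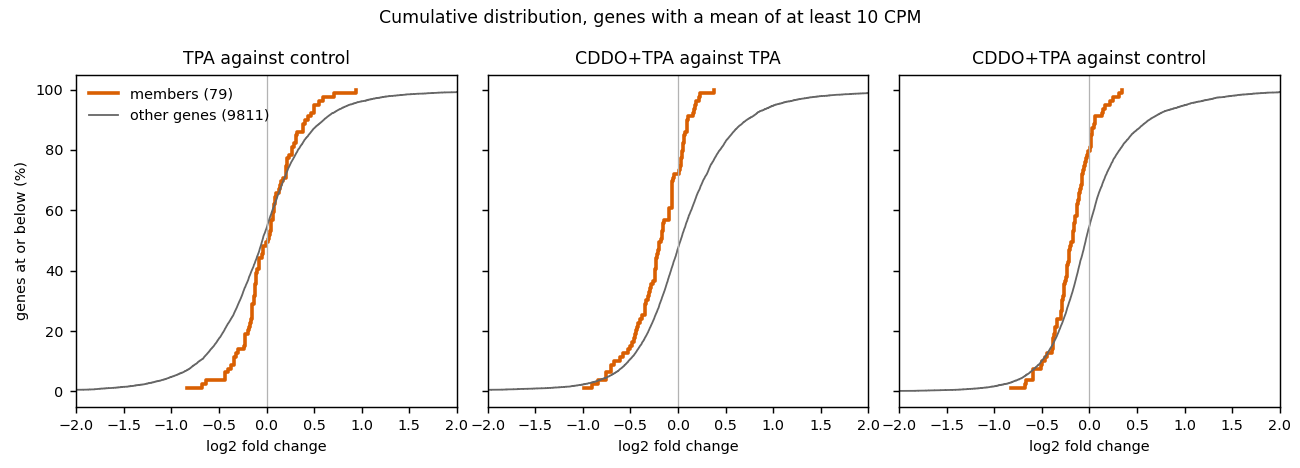
Cumulative share of genes by log2 fold change for the 79 members (orange) and 9811 other genes (grey) with a mean of at least 10 CPM. The member curve is steeper in all 3 panels, and in both CDDO+TPA comparisons it ends at log2 fold changes of 0.37 and 0.34.

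Proliferation genes were higher in the CDDO+TPA library, where most splicing genes were slightly lower. The 12 proliferation genes listed, among them Mki67 and Top2a, summed to 1813 CPM in the CDDO+TPA library, 606 CPM in the TPA library and 919 CPM in the control library. Their median log2 fold change was 1.71 for CDDO+TPA against TPA, 1.20 for CDDO+TPA against control and -0.67 for TPA against control. Of the 12, 10 were past the 2-fold rule upward in CDDO+TPA against TPA, while no splicing gene was. The part of proliferation in the values of splicing genes was not tested.

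Among the classical SR proteins, which share an RNA-binding domain and an arginine- and serine-rich domain, 10 of 11 were measured. Their median log2 fold change was -0.08 for TPA against control, -0.16 for CDDO+TPA against TPA and -0.23 for CDDO+TPA against control. None was past the 1.5-fold rule except Srsf4, downward in CDDO+TPA against TPA. The share lower there was 12.8% over measured genes and 8.02% over genes with a mean of at least 10 CPM. Srsf4 was 1.61-fold lower (1.30 to 1.99), a value uncertain through the bases shared with Gm12992. It had 18.1, 29.1 and 21.5 CPM in the CDDO+TPA, TPA and control libraries. Srsf1, an SR protein known as an oncogene, had 206, 216 and 286 CPM in the same order, and was 1.39-fold lower (1.30 to 1.48) in CDDO+TPA against control. Srsf3, a small SR protein that also acts in mRNA export, had 124, 119 and 161 CPM, and was 1.36-fold lower (1.25 to 1.48) in TPA against control. In these genes the CDDO+TPA and TPA libraries lay close together, below control, but neither gene was past the rule.

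Srsf2 and Srsf11, like Srsf4, had their highest value in the TPA library. Srsf2 had 149, 201 and 174 CPM in the CDDO+TPA, TPA and control libraries, and was 1.35-fold lower (1.25 to 1.45) in CDDO+TPA against TPA. Srsf11 had 173, 235 and 202 CPM. Srsf5 and Srsf6 were nearly level, with 168, 161 and 166 CPM and 226, 216 and 239 CPM, and their log2 fold changes lay between -0.15 and 0.07 in the 3 comparisons. Srsf7, Srsf9 and Srsf10 had log2 fold changes between -0.30 and 0.05. Srsf12 had 1 read in the CDDO+TPA library, 1 in TPA and 0 in control, so no level could be given above a floor of 3 reads, which is 0.380, 0.377 and 0.374 CPM.

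The SR-related proteins and CLK kinases had 5 of 15 measured members past the 1.5-fold rule downward and 0 upward in CDDO+TPA against TPA, with a median log2 fold change of -0.34. The share lower was 12.8% over measured genes and 8.02% over genes with a mean of at least 10 CPM. Srrm3 is among the 5 and was measured only through the TPA library, where it is high, so its direction was fixed by the level filter. All 4 CLK kinases were lower in the CDDO+TPA library than in either other library. Clk1 (mm10 chromosome 1, 58411988 to 58424088, minus strand) had 66.1, 112 and 105 CPM in the CDDO+TPA, TPA and control libraries. It was 1.69-fold lower (1.52 to 1.89) in CDDO+TPA against TPA and 1.59-fold lower (1.42 to 1.77) against control, while TPA and control differed by a log2 fold change of 0.09. Clk2 (chromosome 3, 89164795 to 89177087, plus strand) was 1.52-fold higher (1.25 to 1.84) in TPA against control and 2.00-fold lower (1.62 to 2.47) in CDDO+TPA against TPA. Its log2 fold change in the second comparison was -0.99, just short of the 2-fold rule, and it is uncertain through the bases shared with Clk2-scamp3.

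Clk3 and Clk4 differed less and were past neither rule. Clk3 had 89.8, 117 and 107 CPM in the CDDO+TPA, TPA and control libraries and was 1.30-fold lower (1.18 to 1.44) in CDDO+TPA against TPA. Clk4 had 65.6, 77.7 and 74.0 CPM and was 1.18-fold lower (1.05 to 1.33) in the same comparison. In TPA against control Clk1 was 1.06-fold higher (0.968 to 1.17), Clk3 1.09-fold higher (0.994 to 1.20) and Clk4 1.05-fold higher (0.937 to 1.18), so for these 3 TPA and control differed within counting error.

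The LUC7L genes encode U1 snRNP-associated proteins that influence the choice of 5′ splice sites. Luc7l (chromosome 17, 26252910 to 26285506, plus strand) had 115, 206 and 146 CPM in the CDDO+TPA, TPA and control libraries. It was 1.79-fold lower (1.65 to 1.94) in CDDO+TPA against TPA and 1.41-fold higher (1.31 to 1.52) in TPA against control. Luc7l3 (chromosome 11, 94291139 to 94321911, minus strand) was 1.69-fold lower (1.56 to 1.82) in CDDO+TPA against TPA and 1.60-fold lower (1.48 to 1.73) against control. Luc7l2, the most abundant of the 3 in reads, had 339.5, 401 and 362 CPM and was past no rule, with a log2 fold change of -0.24 in CDDO+TPA against TPA. All 3 genes had their lowest value in the CDDO+TPA library. In TPA against control Luc7l3 was 1.05-fold higher (0.985 to 1.13), within counting error.

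The 4 RBM members were past no rule in any comparison. Rbm39, a U2AF-related coactivator and the target that aryl sulfonamide drugs degrade, had 204, 235 and 267 CPM in the CDDO+TPA, TPA and control libraries and was 1.31-fold lower (1.22 to 1.39) in CDDO+TPA against control. Rbm25, a regulator of apoptotic splice choices, had 272, 331 and 280.5 CPM. Rbm5, a candidate tumour suppressor that regulates Fas splicing in human cells, had 164, 182 and 176 CPM, and its relative Rbm10 had 60.4, 58.0 and 71.5 CPM. Rbm10 was the lowest of the class among abundant members in TPA against control, with a log2 fold change of -0.30.

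The SRRM genes ranged from the member with the most reads to some with the fewest. Srrm2, a large scaffold of nuclear speckles, had 802, 777 and 823 CPM in the CDDO+TPA, TPA and control libraries, with log2 fold changes between -0.08 and 0.05. Srrm1, a coactivator found in the same speckles, had 296, 375 and 265 CPM and was 1.42-fold higher (1.34 to 1.5) in TPA against control. Srrm4, known as a neural regulator of microexons, had 37.5, 52.5 and 56.5 CPM and was 1.51-fold lower (1.30 to 1.75) in CDDO+TPA against control. Its level per length was low, 6.53 CPM per kb averaged over libraries. Srrm3, its relative and also known from neurons, had 1, 16 and 1 reads and was the only member past the 2-fold rule, 16.1-fold higher (2.50 to 675) in TPA against control and 15.8-fold lower (2.46 to 665) in CDDO+TPA against TPA. It passed the level filter through the TPA library alone, and its intervals span 2 orders of magnitude because 1 read was counted in each of the other libraries. The antisense RNA gene Srrm4os, which the symbol rule also takes, had 1, 0 and 0 reads.

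The hnRNPs, which package nascent RNA and often repress exons, were all measured, 20 of 20. The median log2 fold change was 0.02 for TPA against control, -0.13 for CDDO+TPA against TPA and -0.16 for CDDO+TPA against control. Hnrnpll, the relative of Hnrnpl known for switching CD45 exons in T cells, was the only hnRNP past the 1.5-fold rule in TPA against control. It had 104, 91.8 and 147 CPM in the CDDO+TPA, TPA and control libraries and was 1.60-fold lower (1.46 to 1.75) in that comparison. Hnrnph3 had 8.62, 13.3 and 13.1 CPM, and was 1.54-fold lower (1.13 to 2.13) in CDDO+TPA against TPA and 1.52-fold lower (1.11 to 2.10) against control. Its values are uncertain through the bases shared with Rufy2.

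Other hnRNPs showed smaller differences in 2 patterns. Hnrnph1, Hnrnpd and Hnrnpdl had their highest values in the TPA library. Hnrnph1, which regulates exons with G-rich elements, had 203, 279 and 233 CPM in the CDDO+TPA, TPA and control libraries and was 1.38-fold lower (1.29 to 1.47) in CDDO+TPA against TPA. Hnrnpd, the AU-rich element binding protein AUF1, had 100.4, 138 and 118 CPM, and its relative Hnrnpdl had 111, 147 and 112 CPM and was the highest hnRNP in TPA against control, with a log2 fold change of 0.38. Hnrnpc, a poly-U binding protein that keeps Alu-derived exons silent in human cells, ran the other way with 185, 162 and 177 CPM and had the highest log2 fold change of the class in CDDO+TPA against TPA, 0.19.

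Several abundant hnRNPs differed less. Over all 20, log2 fold changes ranged between -0.67 and 0.38 for TPA against control, -0.61 and 0.19 for CDDO+TPA against TPA, and -0.59 and 0.06 for CDDO+TPA against control. Hnrnpu, a nuclear scaffold protein, had 349, 391 and 424 CPM in the CDDO+TPA, TPA and control libraries. Hnrnpk, a C-rich sequence binding protein, had 265, 248 and 289 CPM, and Hnrnpa2b1 had 202, 199 and 213 CPM. In these 3 genes the log2 fold changes lay between -0.28 and 0.09. Hnrnph1 had 0.720, 1.000 and 0.838 reads per exonic base in CDDO+TPA, TPA and control, the densest of the measured members in the TPA library but not in the others. Where duplicate reads are removed by position, such density can narrow a difference, and its part here was not tested.

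The Sm and snRNP genes, which encode the protein rings and specific subunits of U1, U2 and other snRNPs, had 11 of 12 members measured and none past the 1.5-fold rule in any comparison. Their medians were -0.08 for TPA against control, -0.22 for CDDO+TPA against TPA and -0.26 for CDDO+TPA against control. Snrpb, which encodes the Sm proteins B and B', had 106, 90.8 and 115 CPM in the CDDO+TPA, TPA and control libraries, and was 1.27-fold lower (1.15 to 1.40) in TPA against control. Snrpb2, the U2 protein B'', had 40.8, 50.2 and 55.7 CPM and was 1.36-fold lower (1.18 to 1.58) in CDDO+TPA against control, the lowest of the class there. Snrpd2, a core Sm protein, had 37.6, 39.3 and 31.7 CPM, with control lowest, and was 1.24-fold higher (1.05 to 1.47) in TPA against control. Snrpa, a U1 subunit, had 72.9, 85.8 and 95.3 CPM. Over the 11 measured genes log2 fold changes ranged between -0.34 and 0.31 for TPA against control, -0.37 and 0.23 for CDDO+TPA against TPA, and -0.45 and 0.25 for CDDO+TPA against control.

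In the U2, SF3 and U2AF class all 12 genes were measured. Past the 1.5-fold rule 2 were lower in TPA against control, 1 lower in CDDO+TPA against TPA and 2 lower in CDDO+TPA against control, and 0 were higher in each. The shares lower over measured genes were 13.7%, 12.8% and 8.70% in these comparisons. Over genes with a mean of at least 10 CPM they were 13.9%, 8.02% and 7.43%. Sf3b6 is in both counts of 2 and was short of the rule with total-count scaling, at log2 fold changes of -0.58 and -0.56. U2af1l4, a short relative of U2af1 that is itself alternatively spliced, had 17.4, 17.2 and 30.9 CPM in the CDDO+TPA, TPA and control libraries. It was 1.80-fold lower (1.46 to 2.23) in TPA against control and 1.78-fold lower (1.44 to 2.21) in CDDO+TPA against control, the lowest value of the class in both. U2af1, the small subunit that reads the AG at the end of the intron, had 39.5, 53.1 and 45.9 CPM and U2af2, the large subunit that binds the polypyrimidine tract, had 147, 208 and 157 CPM. Both had their highest value in the TPA library, and U2af2 was 1.42-fold lower (1.32 to 1.53) in CDDO+TPA against TPA, short of the rule.

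Sf3b6, the p14 subunit that touches the branch-point adenosine, had 43.8, 42.6 and 66.5 CPM in the CDDO+TPA, TPA and control libraries. It was 1.56-fold lower (1.36 to 1.80) in TPA against control and 1.52-fold lower (1.32 to 1.74) in CDDO+TPA against control. Sf3b4, a subunit of SF3B with RNA recognition motifs, had 72.6, 118 and 85.6 CPM and was 1.63-fold lower (1.47 to 1.81) in CDDO+TPA against TPA. Sf3a1, a scaffold of SF3A, had 244, 209 and 282 CPM and the highest log2 fold change of the class in CDDO+TPA against TPA, 0.22. Sf3b2 was the only member of the class higher in CDDO+TPA than in control, with 356, 343 and 281 CPM. Sf3b1, the branch-site protein that is mutated in human myelodysplasia and bound by splicing inhibitors, had 292, 346 and 324 CPM, with log2 fold changes between -0.24 and 0.09. Members of the same subcomplex therefore had different orders among the libraries.

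All 13 PRPF genes were measured, and the class was the only one whose median stayed near 0 in both CDDO+TPA comparisons, at 0.03. In TPA against control 2 were past the 1.5-fold rule upward and 0 downward, and in CDDO+TPA against TPA 0 upward and 2 downward. Each 2 of 13 is 15.4%, against 15.5% higher and 12.8% lower of measured genes in these comparisons. Over genes with a mean of at least 10 CPM the shares were 10.4% higher and 8.02% lower. Prpf39 (chromosome 12, 65036334 to 65063386, plus strand), which takes the place of yeast Prp39 and Prp42 in U1, was 1.93-fold higher (1.77 to 2.09) in TPA against control and 1.87-fold lower (1.72 to 2.03) in CDDO+TPA against TPA, and CDDO+TPA and control differed by a log2 fold change of 0.04. Prpf40b, a U1-associated WW-domain protein, had 70.3, 105 and 64.3 CPM in the CDDO+TPA, TPA and control libraries and was 1.63-fold higher (1.46 to 1.83) in TPA against control. Prpf3, a U4/U6 protein mutated in human retinitis pigmentosa, had 107, 174 and 119 CPM and was 1.63-fold lower (1.5 to 1.78) in CDDO+TPA against TPA. In these 3 genes the TPA library was highest.

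Several other PRPF genes lay closer together or had another order. Over the 13 genes log2 fold changes ranged between -0.37 and 0.94 for TPA against control, -0.90 and 0.37 for CDDO+TPA against TPA, and -0.51 and 0.31 for CDDO+TPA against control. Prpf8, the core of the spliceosome's active site, had 636, 595 and 610.4 CPM in the CDDO+TPA, TPA and control libraries, with log2 fold changes between -0.04 and 0.09. Prpf31, also a human retinitis pigmentosa gene, had 81.6, 62.9 and 80.0 CPM and was 1.30-fold higher (1.15 to 1.46) in CDDO+TPA against TPA, the highest log2 fold change of all abundant members there, 0.37. Prpf4 had 57.1, 59.8 and 45.9 CPM, and was highest of the class in CDDO+TPA against control with a log2 fold change of 0.31. Prpf38b had 151, 188 and 214 CPM and was 1.42-fold lower (1.32 to 1.53) in CDDO+TPA against control. Prpf38a, a component of the precatalytic spliceosome, had 39.5, 38.8 and 50.2 CPM and the lowest log2 fold change of the class in TPA against control, -0.37.

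**Figure D4:**
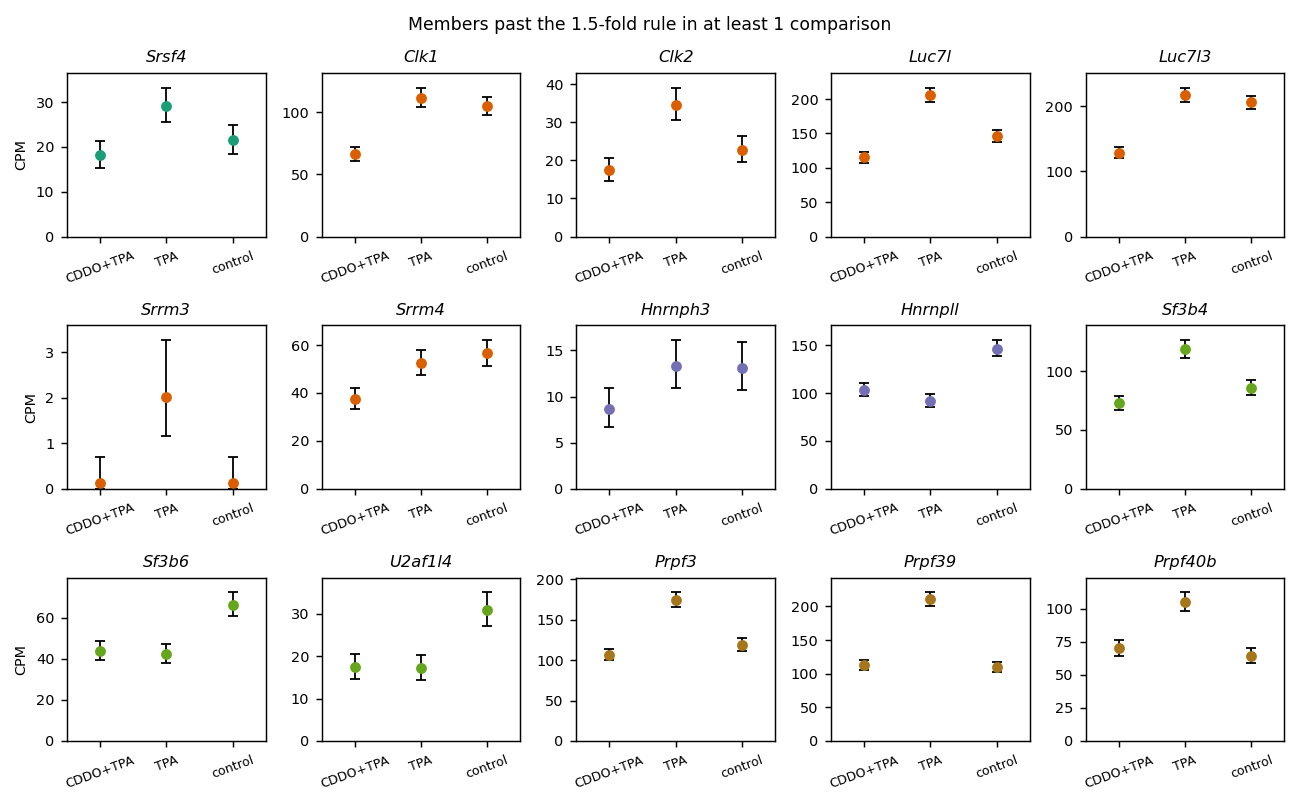
CPM of each member past the 1.5-fold rule in at least 1 comparison, in the CDDO+TPA, TPA and control libraries, with 95% Poisson counting intervals of each library and each axis starting at 0. Prpf39 and Prpf40b stand out in the TPA library, Clk1 and Luc7l3 are low in the CDDO+TPA library, and U2af1l4 and Sf3b6 are high in the control library.

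Annotated transcript types were compared as a feature that the choice of genes did not use. In GENCODE release M21, 48 of the 81 measured members (59.3%) have a transcript marked for nonsense-mediated decay, against 28.7% of 11986 measured protein-coding genes matched by symbol. The share was 9 of 10 for SR proteins and 14 of 15 for SR-related proteins and CLK kinases, but 4 of 12 for the U2, SF3 and U2AF genes. Transcripts with a retained intron are annotated for 64 members (79.0%), against 58.8%. These backgrounds were not matched for level, and the median of mean CPM was 137.5 for measured members and 46.5 for all measured genes. The 48 members with such a decay transcript had a median log2 fold change of -0.24 in CDDO+TPA against TPA and the 33 without one had -0.07, while over all measured genes the medians were 0.02 and 0.01. Among the 48 are 9 SR proteins and 14 SR-related proteins and CLK kinases. The latter class had a median of -0.34 in that comparison, so class and decay annotation cannot be told apart here. In CDDO+TPA against control the members' medians were -0.16 and -0.20, and in TPA against control 0.06 and -0.08. Counts per gene do not tell these transcripts apart, so no change in splicing can be read from them.

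A list of 140 other splicing genes, outside the symbol rule, was set beside the members, with 135 measured. Past the 1.5-fold rule 7 were higher and 5 lower in TPA against control, 4 higher and 8 lower in CDDO+TPA against TPA, and 2 higher and 10 lower in CDDO+TPA against control. In TPA against control these were 5.19% and 3.70%, against 15.5% and 13.7% of measured genes. In CDDO+TPA against TPA they were 2.96% and 5.93%, against 15.3% and 12.8%, and in CDDO+TPA against control 1.48% and 7.41%, against 13.4% and 8.70%. Their median log2 fold changes were 0.00, -0.17 and -0.17, close to 0.02, -0.20 and -0.18 for the members. Past the 2-fold rule 7 genes appeared in at least 1 comparison. Rbm15, an adaptor of the m6A methyltransferase, had 49.8, 108 and 50.9 CPM in the CDDO+TPA, TPA and control libraries and was 2.13-fold higher (1.89 to 2.40) in TPA against control. Ptbp2, the neural form of the polypyrimidine tract binding protein, had 57.0, 125 and 73.3 CPM and was 2.19-fold lower (1.96 to 2.46) in CDDO+TPA against TPA. In both the TPA library was highest, as for Prpf39.

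The remaining genes past the 2-fold rule had fewer reads. Magohb, a copy of the exon junction protein gene Magoh, had 74, 47 and 144 reads in the CDDO+TPA, TPA and control libraries, and was 3.05-fold lower (2.18 to 4.33) in TPA against control. Gemin6 and Gemin8, parts of the SMN complex that assembles Sm rings, had 101, 61 and 159 reads and 66, 34 and 32 reads. Gemin6 was 2.59-fold lower (1.92 to 3.54) in TPA against control and Gemin8 was 2.09-fold higher (1.35 to 3.30) in CDDO+TPA against control. Ppih, a cyclophilin of the tri-snRNP, had 119, 106 and 55 reads in the CDDO+TPA, TPA and control libraries, and in CDDO+TPA against control it was 2.20-fold higher (1.58 to 3.08). Esrp2, an epithelial splicing regulator, had 4, 14 and 1 reads in that order. In TPA against control it was 14.1-fold higher (2.14 to 596), resting on 1 read in control, and it passed the level filter through the TPA library alone.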

How the data were processed

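The values deposited by the authors are raw read counts by gene symbol for total RNA of the 3 libraries, with each gene's exonic length. Per the file headers, featureCounts 1.5.3 counted primary alignments on a UCSC mm10 annotation with no option for strand, read pairs or reads shared by genes, and the columns carry a mark of duplicate removal. The submitters' processing notes also name HISAT2, Picard and DESeq without versions. Any pooling of cultures is not stated there.

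Libraries were scaled by TMM factors (edgeR 4.0.16, R 4.3.3) of 1.00, 1.02 and 0.978 for CDDO+TPA, TPA and control. Log2 fold changes are differences of log2 CPM with a prior count of 2, which understates changes at few reads. Folds are CPM ratios with exact conditional binomial (Clopper-Pearson) 95% intervals. Genes entered with at least 1 CPM in 1 library, 13100 of 24421. No p-value was computed, since each group has 1 library. The interval method was run on simulated counts with counting error only, which is the error it assumes. That run cannot show how the intervals do with a spread between cultures. Named are members past the 2-fold rule, the highest and lowest of each class in each comparison with a mean of at least 10 CPM, all CLK, U2AF and RBM members, and further members chosen after their values were seen. Members, lists and motifs were chosen with earlier results of these data known. Promoters come from RefSeq (GRCm38.p6, 72 of 84 members matched) and transcript types from GENCODE M21. Alternatives covered scaling, the level filter, the prior count and a wider interval.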

Additional observations from a re-analysis of the deposited data

How the results depend on the processing

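The median log2 fold change of the members kept its sign under the 7 alternatives tried for it, which were total-count, RLE and upper-quartile scaling, no level filter, a mean of at least 10 CPM, and prior counts of 0.5 and 5. It ranged from 0.02 to 0.08 for TPA against control, from -0.22 to -0.17 for CDDO+TPA against TPA and from -0.18 to -0.13 for CDDO+TPA against control. The PRPF median in TPA against control was -0.04, and 0.02 with total-count scaling. Counts at the rules' limits moved. With total-count or upper-quartile scaling 2 members were past the 2-fold rule upward in TPA against control and 2 downward in CDDO+TPA against TPA, since Prpf39 reached a log2 fold change of 1.00 or 1.01 and Clk2 one of -1.01. With a mean of at least 10 CPM both counts were 0, since Srrm3 was left out. In CDDO+TPA against control 3 members were past the 1.5-fold rule downward with total-count and 3 with upper-quartile scaling, since Hnrnph3, Sf3b6 and Srrm4 fell short of it. With the interval widened for a spread between cultures set at a coefficient of variation of 0.2, the 1.5-fold counts were 2 higher and 0 lower for TPA against control, 4 lower for CDDO+TPA against TPA and 0 lower for CDDO+TPA against control, so that 6 of 23 differences kept their call. Srrm3, whose direction was fixed by the level filter, is among those kept in both comparisons that use the TPA library. The real spread between cultures is unknown. The other 7 alternatives kept between 19 and 23 of the calls each tested. No paired analysis was possible because each group has 1 library. Depth limits members with few reads such as Srrm3, with 1, 16 and 1 reads in the CDDO+TPA, TPA and control libraries.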

Other observations

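Some splicing genes differed between libraries while a close relative differed less or in another way, and the ratio of the 2 within a library does not depend on how libraries are scaled. These pairs were chosen after their values were seen, no spread between cultures was measured, and the ratios are descriptions. For Ptbp2 against Ptbp1, its widely expressed relative, the ratio of CPM was 0.192, 0.407 and 0.232 in the CDDO+TPA, TPA and control libraries, with Ptbp1 at 297, 307 and 316 CPM. In this pair the TPA library was high and the other libraries were closer together.

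In other pairs the control library was the high one. The CPM of U2af1l4 was 0.439, 0.324 and 0.674 times that of U2af1 in the CDDO+TPA, TPA and control libraries. The CPM of Hnrnpll was 0.590, 0.410 and 0.789 times that of Hnrnpl, and that of Magohb 0.247, 0.118 and 0.339 times that of Magoh. Magoh and Magohb encode nearly identical proteins, so reads may be divided between them, although Magoh alone had 37.9, 50.1 and 53.0 CPM. Among the U1-associated LUC7L genes, Luc7l3 stood at 0.380, 0.542 and 0.569 times Luc7l2, with the CDDO+TPA library low. Luc7l stood at 0.339, 0.513 and 0.403 times Luc7l2.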
